A study of Homo sapiens with 24 samples.

Results

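The m6A landscape of human pancreatic progenitors (PP) was described from 1 peak list, called by the authors on the PP_m6A (IP) and PP_input libraries of batch 1. All 29083 peaks of that list were used, of 228472 peaks in the 6 lists of the series, and 11808 genes held at least 1 of them. The cells came from MEL1, a human embryonic stem cell line maintained on CF1 feeder cells. The methods of the study name the line as MEL1 INS GFP/W, a reporter line in which GFP marks expression of the insulin gene, and the labels give MEL1 for all groups used here. They were taken through endoderm with activin A and CHIR99021, then KGF, then KGF with vitamin C, LDN-193189, GDC-0449 and retinoic acid, and at last vitamin C, LDN-193189 and EGF. The labels do not give the day on which PP were collected. The same line and protocol gave the pluripotent cells (hPSC), definitive endoderm (DE) and islet-like organoids (hILO) whose lists are set beside PP below. A further PP population, wild-type PP (WT PP), came from batch 2, in which total RNA in place of mRNA, another antibody and another library kit were used. The series holds 24 libraries. PP had 2 IP and 2 input libraries, and the deposited list pools them, so no value has a spread between replicates and nothing below was tested. Intervals are Wilson 95% intervals, and they cover counting error only.

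m6A is methylation of adenosine at its N6 position and the most common internal mark of mRNA. A complex around METTL3 and METTL14 writes it at DRACH sites (D stands for any base but C, R for a purine and H for any base but G), FTO and ALKBH5 remove it, and proteins of the YTH family bind it and alter the stability and translation of the mRNA. In m6A-seq, mRNA is cut into short fragments, of about 100 nt here, and the fragments bound by an antibody against m6A (IP) are sequenced beside the unselected fragments (input). A peak is a stretch where IP exceeds input. Its log2 enrichment is the value the authors deposited for IP over input, as estimated by exomePeak2, and differs from the plain ratio of reads. A gene needs expression to have a peak, so a gene without a listed peak may be unmethylated, weakly methylated or not expressed, and these cannot be told apart here.

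Reads in PP peaks numbered 30944774 in IP and 6987612 in input. A median peak covered 175 nt of exon and held 372 IP and 87 input reads, which gave its log2 enrichment a counting error of 0.172. The median log2 enrichment was 1.64, with quartiles of 1.26 and 2.14. Of all peaks, 61.8% had a p below 1e-05, the threshold that the methods of the study name, and 30 peaks had no input read.

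The transcription factors that define pancreatic progenitors were widely represented in the list. Of 18 such factors, 16 had a peak, or 88.9% (67.2% to 96.9%), against a background of 48% of all 20046 protein-coding genes with a peak. The factors without a listed peak were NKX6-2 and PTF1A. With only peaks of at least 50 input reads, the share of factors was 77.8%, beside 39.4% of protein-coding genes. In such bulk samples fewer cells of a type and less RNA per cell cannot be told apart. PDX1, the master regulator of pancreas development, had 4 peaks with 2654 input and 10918 IP reads. NKX6-1, which is needed for the beta cell lineage, had 3 peaks with 2489 input reads, and SOX9, which maintains the progenitor pool, had 2 peaks with 4111 input reads. MNX1 had the most IP reads of the factors, 36234 in 4 peaks. GLIS3 and ONECUT2 had the most peaks, 8 each, followed by PROX1 with 7, ONECUT1 with 6 and GATA4 with 5. HES1 and HHEX were thinly covered, with 51 and 75 input reads in all their peaks, and 12 of the 62 peaks of the factors had fewer than 50 input reads.

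Markers of other cells were listed in varied shares, beside the same 48% of all protein-coding genes. Of 19 endocrine factors and hormones 5 had a peak, 26.3% (11.8% to 48.8%), namely CHGA, INSM1, RFX6, NEUROD1 and NKX2-2, and no hormone gene of the list was among them. The summed input reads of these 5 genes were 1358, against 31553 for the progenitor factors. Acinar and duct genes had a peak in 5 of 13, led by the chloride channel CFTR with 9 peaks, hepatic genes in 3 of 12 (HNF4A, CEBPA and APOB), gut and lung genes in 5 of 9 (CDX2 among them), and mesendoderm genes in 2 of 11 (CXCR4 and KIT). The share was 55.6% for the gut and lung genes (26.7% to 81.1%), but 22.2% at an IP/input of at least 3 and 11.1% at a p below 1e-10, beside 35.4% and 28.8% of protein-coding genes. Mesenchyme genes had a peak in 8 of 13, or 61.5% (35.5% to 82.3%), with 4717 input reads, among them COL3A1 with 9 peaks. Neural genes had a peak in 1 of 11, the intermediate filament gene NES, and endothelial and blood genes in 0 of 8. Of the pluripotency genes 7 of 13 had a peak, or 53.8% (29.1% to 76.8%), but 23.1% had one at a p below 1e-05, beside 38.7% of protein-coding genes. Among them L1TD1 and SALL4, with 6 peaks each, held most of their reads. The intervals of the gut and lung, mesenchyme and pluripotency lists, as deposited, overlapped that of the progenitor factors. No peak was listed on POU5F1, NANOG or SOX2.

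The sites nearest the middle of the most enriched peak with at least 50 input reads are shown for 4 progenitor factors, for 2 of the genes with most IP reads (EEF2 and TAF15) and for 2 genes with a highly enriched peak (BAMBI and TRIP11), because these genes carry the results below. Each window is 25 nt of GRCh38 on the strand of the transcript, and capitals mark the DRACH site. A DRACH site in a peak is a description and does not locate the methylated base.
NKX6-1: agaagaagcaGGACTcggagacaga
SOX9: tcttccttaaAGACAtttaagctaa
NR5A2: gaagaaaaacGGACAgaacggttct
PROX1: accggaaggcAAACAtttggctgag
EEF2: tctgcctgaaGGACCtggaggagga
TAF15: ccaaggctatGGACAagcatcacaa
BAMBI: tactcctttaGGACAaggaaacagg
TRIP11: aagaaaccatGAACActatatgtat
The NKX6-1 window lies at chr4:84493461-84493485 on the minus strand, in the CDS. The SOX9 window lies at chr17:72124525-72124549 on the plus strand, in the 3UTR. The NR5A2 window lies at chr1:200174513-200174537 (plus, 3UTR) and that of PROX1 at chr1:213997561-213997585 (plus, CDS). The EEF2 window is at chr19:3979351-3979375 (minus, CDS), that of TAF15 at chr17:35820051-35820075 (plus, CDS), that of BAMBI at chr10:28681972-28681996 (plus, off the longest coding isoform) and that of TRIP11 at chr14:91969614-91969638 (minus, 3UTR).

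On the progenitor factors peaks fell mostly on coding sequence and 3UTR, as they did over all genes. The CDS held 44.8% of the 58 placed peaks of the factors and the 3UTR 43.1%. Over all 21718 placed peaks the shares were 55.8% and 38.3%. Of the 16 factors with a peak, 13 had one in the 3UTR, 14 in the CDS and 7 in the 5UTR. A peak midpoint within 500 nt of the stop codon was found on 15 factors. The same counts over all genes with a peak were not made. The peak of NKX6-1 shown above, 195 nt before the stop codon, held 575 input and 6042 IP reads and had a log2 enrichment of 3.34 (counting error 0.063). The 2 peaks of NKX6-1 in the 3UTR had lower values of 0.96 and 1.19. SOX9 had its larger peak over 875 nt around the start of the 3UTR, with 3607 input and 27081 IP reads and a log2 enrichment of 2.42 (0.026), and a smaller one in the CDS at 1.15 (0.070). The order differed between factors. PDX1 had its highest log2 enrichment in the CDS, 2.60 on 40 input reads (0.233), whereas its most read peak, 875 nt into the 3UTR, stood at 0.95 on 1769 input reads (0.039). NR5A2, a nuclear receptor of pancreas and liver, had 2.79 (0.093) in the 3UTR and 2.12 (0.066) in the CDS. On ONECUT2, a cut-homeobox factor with a very long 3UTR, 6 of 8 peaks lay in the 3UTR, the farthest 14233 nt after the stop codon.

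Across all genes the number of peaks was low for most and high for few. Of 11808 genes, 4997 had 1 peak, 5397 had 2 to 4, 1268 had 5 to 9, 122 had 10 to 14 and 24 had 15 or more. Genes with 5 or more peaks, the highest class that the study uses, made up 12.0% of genes with a peak (11.4% to 12.6%) and 6.72% of all protein-coding genes. The first share was 5.52% with peaks at a p below 1e-05, 2.16% below 1e-10 and 4.17% at an IP/input of at least 3. VCAN, which encodes the matrix proteoglycan versican, had the most peaks, 24, with 16670 input and 54312 IP reads. ANKRD11, a chromatin-associated regulator, had 22. MKI67, the proliferation marker, KMT2A, a histone H3K4 methyltransferase, and DST, a cytoskeletal linker, had 21 each. KMT2D, ZFHX3 and AHNAK had 20, CENPF and FAT1 19, and YLPM1 18.

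**Figure D1:**
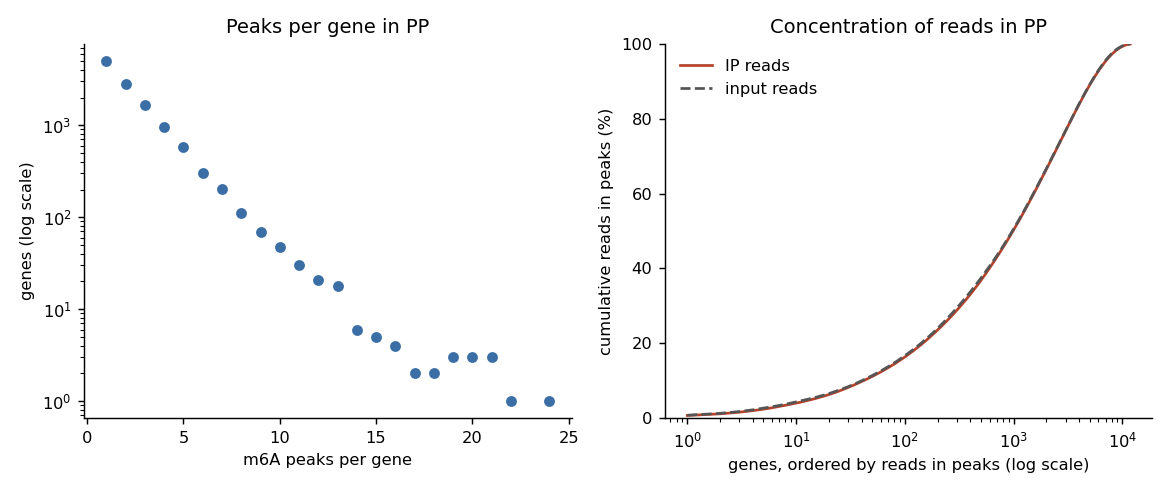
Left, number of genes (log scale) for each number of PP peaks per gene, from 4997 genes with 1 peak to VCAN with 24. Right, cumulative percentage of IP reads (solid) and input reads (dashed) in peaks over genes ordered by their reads (log scale) and 987 genes hold 50% of IP reads.

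Genes with many peaks were long. The median exonic length was 3814 nt for genes with 1 peak, 5646 nt for 2 to 4 peaks, 8514 nt for 5 to 9 and 19665 nt for 15 or more. Over the 11808 genes, the Spearman correlation of peak number was 0.40 with exonic length and 0.60 with input reads in peaks. Input reads share their libraries and peak calls with the peak number, whereas exonic length comes from the annotation. Genes with 15 or more peaks also had more peaks per kb of exon, 0.921 at the median against 0.262 for genes with 1 peak, a difference that the grouping by peak number in large part fixes. MKI67 and VCAN reached 1.64 peaks per kb each, KMT2A 0.667 and DST 0.436. The log2 enrichment of a peak was slightly lower on genes with more of them, 1.70 at the median for genes with 1 peak and 1.51 for 15 or more. By peaks per kb the order was another one. Among protein-coding genes with at least 3 peaks, the mitochondrial gene MT-ND2 was first (3.84 peaks per kb, 8877 input reads), followed by the chemokine gene CCL27, at only 22 input reads, and PPDPF, which is named for pancreatic progenitor cell differentiation and proliferation (2.85 peaks per kb, 1950 input reads). RHOB, a small GTPase, had 6 peaks at 2.54 per kb.

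Reads were concentrated on few genes. The top 1% of genes, 118 genes, held 17.9% of IP reads and 18.2% of input reads in peaks, and 96 genes were in the top 1% by both. PRMT6, an arginine methyltransferase, held the most, 216289 IP and 53697 input reads in 3 peaks. IL6ST, the signalling receptor gp130, followed with 134902 IP reads, then the translation elongation factor EEF2 with 132945, FAHD2A with 127005, the forkhead factor FOXD1 with 121187 and the amyloid precursor gene APP with 113548. Among the next were the m6A reader HNRNPA2B1, SART3, the G1 cyclin CCND2, the histone methyltransferase KMT2B and the RNA-binding protein gene TAF15, which stood at 78639. By input reads PRMT6 was also first, and TARDBP and COL5A3 entered the top 10. Per gene, IP and input reads went together, with a Spearman correlation of 0.975 over 11808 genes that share libraries and peak boundaries, so a gene with most IP reads was in the main a gene with most input reads in its peaks. None of the 12 genes with most IP reads was among the 12 with most peaks, and 50 of the 118 had 5 or more peaks.

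In some of these genes nearly all reads lay in 1 peak, and in others they were divided over several. In IL6ST 98.0% of IP reads fell in a peak of 125 nt in the 5UTR, in SART3 99.3%, in CCND2 98.7% in a peak of 50 nt that fits several annotated genes equally well, and in EEF2 70.7% in 50 nt. EEF2 had 16822 input reads in this peak, which lies in its CDS, 10029 in another peak of 50 nt and 77 in a peak of 350 nt in its 3UTR. PRMT6 had 38332 input reads in a 375 nt peak at the start of its 3UTR, 15074 in a 125 nt peak of its CDS and 291 in a 275 nt peak of its CDS. Of the 118 genes, 102 had 2 or more peaks, and in 34 of these at least 90% of IP reads were in 1 of them. Over all genes of 2 or more peaks the largest peak held 61.3% of IP reads at the median. Peaks with at least 100 IP reads per nt, against a median of 2.52, numbered 277, had a median length of 50 nt and held 17.6% of IP and 16.9% of input reads.

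Input reads did not run evenly along a transcript in this list. Between the first 2 peaks of a gene, in genome order, the Spearman correlation of input reads was 0.225 over 6811 genes, and the same value was 0.304 in hPSC, 0.328 in DE, 0.204 in hILO and 0.236 in WT PP. Input reads were nearly unrelated to exonic length over peaks (0.080, 29083 peaks). In peaks with the same start and end in PP and DE, input reads correlated at 0.195 (2082 peaks), and summed input reads of shared genes at 0.417 (9887 genes). The cause of this unevenness was not tested, and the read totals above are reads in peaks and are not given as expression levels. The largest peaks were searched for copies elsewhere in the genome, since a read with several equal places is given to 1 of them. A copy of at least 95% identity over 90% of the searched exon block was found for none of the genes named above as having most IP reads.

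Gene lists differed widely in how many members had a peak. All 40 chromatin regulators had a peak (91.2% to 100%), beside 48% of all protein-coding genes, and 33 (82.5%) had 5 or more, beside 6.72%. Their median was 7 peaks per gene, against 2 for all protein-coding genes with a peak. They were led in IP reads by KMT2B (6 peaks), the SWI/SNF subunits SMARCA4 (5 peaks) and ARID1A (10 peaks), and the Polycomb-linked ASXL1 (14 peaks). Their median exonic length was 13902 nt against 4416 nt for all protein-coding genes, and per kb those with a peak had 0.537 peaks against 0.375 for all protein-coding genes with a peak. The m6A machinery itself had a peak on 19 of 19 members (83.2% to 100%), beside the same 48%, and 7 of them (36.8%) had 5 or more, beside 6.72%. The median exonic length of this list was 6624 nt, also above 4416 nt. Among the writers, ZC3H13 had 9 peaks and VIRMA 8, whereas METTL14 had 3 and METTL3 1. Among the readers, YTHDF3 had 7, YTHDC1 6 and YTHDF2 5, and YTHDF2, which promotes mRNA decay, held 3376 input reads. The erasers ALKBH5 and FTO had 3 peaks each, with 382 and 192 input reads.

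Signalling pathways that direct pancreatic patterning had shares above the 48% of all protein-coding genes, as they also did in hPSC against its own background. The TGF-beta and BMP pathway had a peak on 28 of 32 genes, the Notch pathway on 21 of 25, the Wnt pathway on 27 of 33, the Hippo pathway on 20 of 26, the FGF and EGF pathway on 22 of 29, the retinoic acid pathway on 16 of 23 and the Hedgehog pathway on 10 of 15, where the lower end of the interval (41.7%) was under 48%. In hPSC the counts were, in the same order, 27, 21, 30, 23, 22, 18 and 9, beside 56.1% of all protein-coding genes. The median exonic lengths of these pathway lists ran from 5127 to 8422 nt, against 4416 nt for all protein-coding genes. Among receptors, NOTCH2 had 5 peaks with 4516 input reads, NOTCH3 had 2 with 5948, and the Wnt receptor FZD7 had 2 with 2483. Among feedback inhibitors of receptor tyrosine kinase signalling, DUSP6 had 5 peaks and 12551 input reads, SPRY4 had 6 and 7646, and SPRY2 had 1 and 5787. Among effectors and targets, the Notch target HEY1 had 3 peaks, the BMP target ID2 had 3, the Hedgehog factor GLI3 had 6, and the retinoic acid co-activator NCOA1 had 8. In the Hippo pathway 9 of 26 genes, or 34.6%, had 5 or more peaks, beside 6.72% of all protein-coding genes, and its median exonic length was 8422 nt against 4416 nt. These were led by the giant cadherins FAT1 with 19 and DCHS1 with 11.

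Zinc finger genes named ZNF were the largest list, and 382 of 508 had a peak (71.3% to 78.7%), beside 48% of all protein-coding genes. Of the 508, 116 (22.8%) had 5 or more, beside 6.72%. The median exonic length of this list was 5551 nt against 4416 nt. The ZNF genes held 1437 peaks and 3.42% of IP reads, and ZNF883, ZNF605, ZNF793 and ZNF608 held most. Cell cycle genes had a peak in 30 of 38 and epithelial genes in 13 of 16, among them the desmosome gene DSP with 10 peaks. At the other end, ribosomal proteins had a peak in 30 of 82 (27.0% to 47.4%), clustered protocadherins in 13 of 53 (14.9% to 37.6%) and replication-dependent histones in 12 of 63 (11.2% to 30.4%). Respiratory chain subunits, with 39 of 84 (36.2% to 57.0%), were near the background. The members of the protocadherin clusters share exons, so their peaks may belong to a neighbour. In all, 16 of 27 lists had a share above 48%, but the intervals of the gut and lung, pluripotency, mesenchyme and Hedgehog lists among them contain it.

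Among peaks with at least 50 input reads, BLOC1S5, a subunit of the complex that builds lysosome-related organelles, had the highest log2 enrichment, 4.65 (counting error 0.164) on 80 input and 2110 IP reads, at a place that several genes share. BAMBI, a pseudoreceptor that dampens TGF-beta and BMP signalling, followed with 3.96 (0.129) on 133 input and 1928 IP reads, and TRIP11, a Golgi protein gene, had 3.91 (0.100) on 221 and 3241, in its 3UTR. ATF7IP, GLRB, PCGF6, RRP15 and PARP8 were between 3.75 and 3.96. By summed reads, among 3476 genes with at least 500 input reads, the log2 ratio of IP over input had a median of 2.13, and 90% of genes were between 1.39 and 2.72. ANKRD39, CAPN5, SENP6, TPCN1 and ANP32A were among the 10 highest. MPP7, which belongs to a cell polarity complex, the GTPase genes RAN and RAC1, and PRDX4 were among the 10 lowest. RAN had 879 input and 1681 IP reads in 1 peak, and MPP7 2170 and 3996.

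Which lists were most enriched depended on the measure. By the deposited log2 enrichment the acinar and duct genes had the highest median of the lists with a peak, 2.01 against 1.64 over all PP peaks. CFTR alone held 9 of the 13 peaks of that list, whose median peak had 38 input reads. The ZNF genes followed with 1.83, the clustered protocadherins with 1.75 and the m6A machinery with 1.73, and the progenitor factors stood at 1.48. By the log2 ratio of pooled reads, after taking off the shift of 0.562 that all peaks showed between the measures, the acinar and duct genes stood at 1.502, the ZNF genes at 1.64, the clustered protocadherins at 1.82, the m6A machinery at 1.497 and the progenitor factors at 1.89. The order of the ZNF genes and the progenitor factors was thus reversed.

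Along the transcript, among the region classes whose density was computed, peaks were densest in long coding exons and in the CDS of the last exon. Of 21718 peaks placed on a longest coding isoform, the CDS held 55.1% of IP reads, the 3UTR 38.2% and the 5UTR 6.61%. With only peaks within 1 exon the order of CDS and 3UTR turned, at 46.9% and 47.9%. Exons of at least 400 nt other than the last had 1206 peaks per megabase, and the CDS of the last exon 1158, against 507 in exons of 200 to under 400 nt and 333 in exons under 200 nt. The 3UTR had 391 peaks per megabase and the 5UTR 480. In the 3UTR, 2724 of 8313 peaks had their midpoint 1 to 200 nt behind the stop, a stretch whose peak density was not computed and may be higher. The median log2 enrichment was similar in the 3UTR (1.66) and the CDS (1.61) and was 1.47 in the 5UTR. Peaks on lncRNA genes numbered 2590 on 1605 genes, with 8.20% of IP reads and a median log2 enrichment of 1.79.

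The DRACH consensus was denser in peaks than in the other exonic sequence of the same genes, 23.0 against 18.3 sites per kb, a ratio of 1.26. On the opposite strand the ratio was 0.846. The ratio was highest for GGACT (1.63, interval 1.59 to 1.66) and GGACA (1.56), the sites in the windows of NKX6-1, NR5A2, TAF15 and BAMBI above, and was 1.51 for the core GGAC. Then came AGACT with a ratio of 1.48 and GAACT with 1.44. The sites that start with TAAC were rarer in peaks than outside, with ratios of 0.872 to 0.922. The presence of DRACH differed little, since 97.5% of peaks of 175 nt held a site and so did 94.7% of exon stretches of the same length outside peaks of the same genes. For GGAC the shares were 53.7% and 37.3%. The motifs overlap, since GGAC followed by any base but G is also a DRACH site, and the strands were searched apart.

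Peaks with more GGAC sites had more IP reads for their input, but a lower deposited enrichment. Among peaks of 100 to 200 nt, the log2 ratio of IP over input reads was 2.13 at the median without a site and 2.35 with 3 or more. The deposited log2 enrichment of the same peaks was 1.69 without a site and 1.46 with 3 or more. The quartiles of the classes overlapped in both measures.

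**Figure D2:**
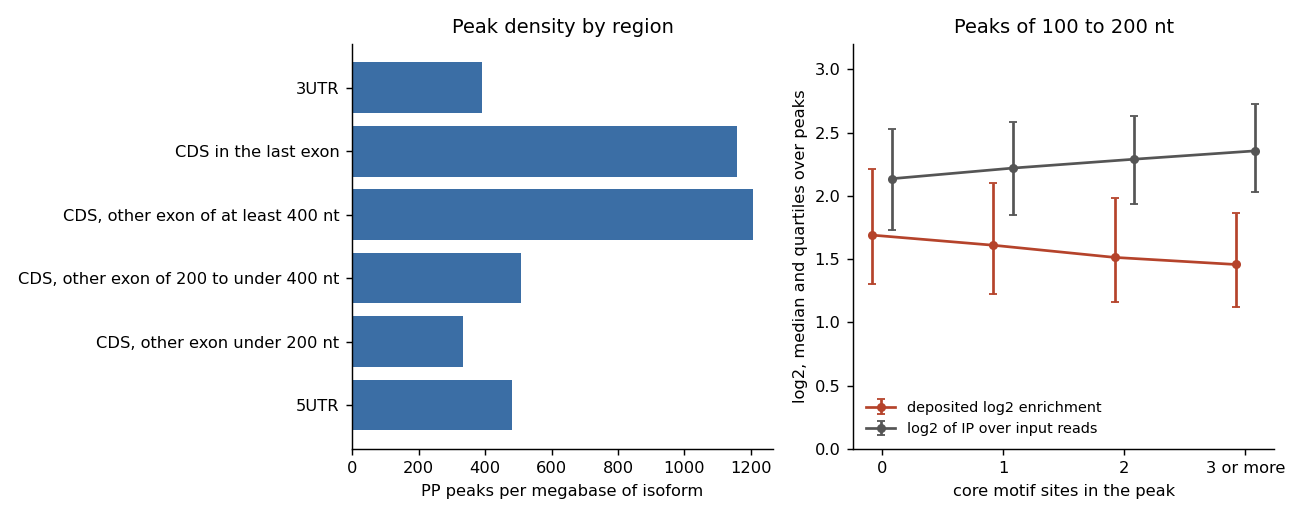
Left, PP peaks per megabase of the longest coding isoform, by region, with 1206 in coding exons of at least 400 nt other than the last and 391 in the 3UTR. Right, median and quartiles over peaks of 100 to 200 nt of the deposited log2 enrichment (red) and of the log2 ratio of IP over input reads (grey) by the number of core motif sites; the first falls from 1.69 to 1.46 and the second rises from 2.13 to 2.35.

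Most genes with a PP peak also had a peak in the other lists, which were called and normalized separately. Of the 11808 genes, 86.0% had a peak in hPSC, 83.7% in DE, 84.9% in hILO and 83.9% in WT PP, or 71.4%, 73.8%, 75.5% and 66.2% of the genes of those lists. Genes without a peak in the other list were thinly read in PP, with a median of 89 to 102 input reads against 259 to 266 for shared genes. Of the 1414 genes with 5 or more peaks in PP, 65.6% had 5 or more in hPSC, 55.6% in DE, 54.9% in hILO and 66.0% in WT PP. Those lists hold 36659, 32680, 31519 and 43312 peaks, against 29083 in PP. The share of all their genes with 5 or more peaks was not computed, so these overlaps have no background beside them. VCAN, first in PP with 24 peaks, had 20 in hPSC, 14 in DE, 17 in hILO and 11 in WT PP. ZFHX3 had 20 in PP and in hILO, 25 in WT PP, 8 in DE and 5 in hPSC.

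The genes with most reads were in part the same across lists. Of the 118 top genes of PP, 36 were in the top 1% of hPSC, 33 of DE, 24 of hILO and 20 of WT PP. PRMT6 had 216289 IP reads in PP, 1620748 in hILO, 75126 in WT PP, 1980 in DE and 1378 in hPSC. FOXD1 had 121187 in PP, 2070191 in WT PP, where it ranked first, 75527 in hPSC, and no peak in DE and hILO. EEF2 had 340778 in hPSC, 98555 in DE, 4945 in hILO and no peak in WT PP. IL6ST was the second in PP and stayed within the first 34 genes in hPSC, DE and hILO, but ranked 2225 in WT PP with 6710 IP reads.

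Developmental lists differed in count from list to list. Of the 18 progenitor factors, 16 had a peak in PP, beside 15 in the hILO list, 10 in DE, 6 in hPSC and 18 in WT PP, against PP, hILO, DE, hPSC and WT PP backgrounds of 48%, 53.3%, 52.9%, 56.1% and 58.8% of protein-coding genes. PDX1, NKX6-1 and ONECUT2 had no peak in hPSC or DE. HOX genes, which set position along the body axis and respond to retinoic acid, had a peak in 13 of 39 in PP and in 2 in hPSC, 2 in DE, 3 in hILO and 15 in WT PP. All 13 belonged to the HOXA and HOXB clusters, with HOXB6 (2057 input reads), HOXB3 (879) and HOXB4 (789) the most read. HOXB6 and HOXB4 had no peak in hPSC, DE or hILO, and HOXB6 had none in WT PP either. Neighbouring HOX genes overlap in part, so their peaks may be shared. Mesendoderm genes had a peak in 11 of 11 in DE, 5 in hPSC, 2 in PP, 2 in hILO and 6 in WT PP, and endocrine genes in 5 of 19 in PP, beside 3 in hPSC, 4 in DE, 15 in hILO and 5 in WT PP. Hepatic genes had a peak in 3 of 12 in PP, 1 in hPSC, 3 in DE, 11 in hILO and 9 in WT PP.

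**Figure D3:**
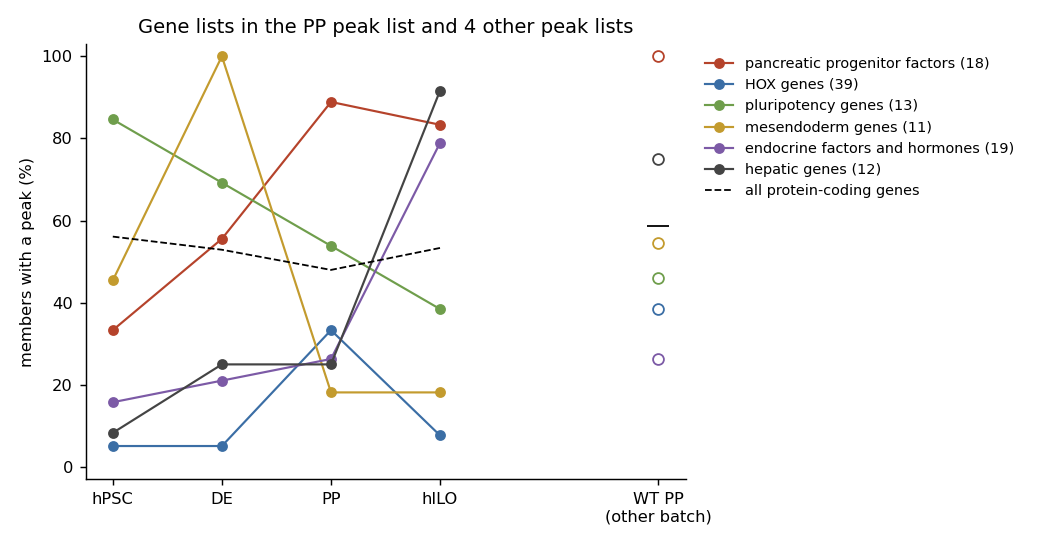
Percentage of members with a peak in each deposited list for 6 gene lists (sizes in brackets) and for all protein-coding genes (dashed); open points and the bar on the right are WT PP of the other batch. Progenitor factors go from 33.3% in hPSC to 88.9% in PP, and HOX genes from 5.13% in DE to 33.3% in PP and 7.69% in hILO.

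Among the 11808 genes with a PP peak, 552 had none in hPSC, DE and hILO. Of these 552, 249 were protein-coding, beside 9623 of the 11808. A peak in WT PP was listed for 247 of the 552, beside 83.9% of the 11808. The 552 genes had a median of 66 input reads and 1 peak. LINC00461, PAPPA, a protease of IGF-binding proteins, ZNF365 and HOXB6 were among those with most IP reads. LINC00461 had 1 peak with 5344 input and 27589 IP reads.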

How the data were processed

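Batch 1 libraries were made from fragmented mRNA with an m6A antibody (SYSY), and 2 IP and 2 input libraries of PP were pooled by the authors into 1 peak list. Per the labels and methods, reads were trimmed with fastp and aligned to GRCh38 with HISAT2, which kept 1 place per read, and peaks were called with exomePeak2 at IP/input of at least 1.5 and a p below 1e-05. The deposited list also holds peaks above that p. The authors deposited for each peak the pooled read counts of IP and input, a log2 enrichment and a p-value, beside an adjusted p and a score that were not used here. Whether the counts are sums or means over the libraries is not given in the sources used here, and depth per library is unknown.

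From these, peaks were assigned to GENCODE 44 genes by the deposited gene ID, cut to exons and placed by their midpoint on the longest coding isoform (21718 of 29083). Of all peaks, 4958 carried several gene IDs, 507 matched several genes equally well, and 258 had no annotated gene. Log2 ratios of the summed reads of a gene used a pseudocount of 0.5. The log2 ratios of single peaks, from which the medians of the gene lists were taken, used a pseudocount of 1. Counting errors treat reads as independent, which reads without molecular identifiers are not. Motifs were counted on exonic sequence, and copies of the largest peaks were sought with blastn 2.17.0+. Python 3.11.15 with pandas 2.3.3, numpy 2.4.6, scipy 1.17.1 and pysam 0.24.0 and samtools 1.23.1 were used, and peak placement and intervals were tested on simulated data.

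Named genes were the 12 with most peaks, the 12 with most IP reads, the 10 with most input reads, the 10 highest and 10 lowest in IP over input at 500 or more input reads, the 10 with most peaks per kb, the 10 with the most enriched peak at 50 or more input reads, and the members of each list with most reads. Members and gene lists were chosen with earlier results of these data known. A few genes that the rule names are not reported here. Genes and regions outside this rule were named after their values were seen. Alternatives were other thresholds on IP/input, p and input reads, peaks within 1 exon, merged peaks, reads per kb, and another motif or strand.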

Additional observations from a re-analysis of the deposited data

How the results depend on the processing

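No paired analysis was possible because the deposited list pools the replicates of PP and no result comes from a test between samples. Leaving out a library was not possible for the same reason. The intervals used to judge whether a value moved cover counting error only and are very narrow for read shares, so small shifts count as moved, and depth per library is unknown. The cause of the shifts was not tested beyond the smaller number of peaks that a threshold leaves.

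The number of peaks was 15442 at IP/input of at least 3, 17966 at a p below 1e-05, 10726 at a p below 1e-10 (on 6663 genes) and 19014 at 50 or more input reads. The share of genes with 5 or more peaks, 12.0% as deposited, was 10.2% at IP/input of at least 2, 4.17% at 3, 5.52% at p below 1e-05, 2.16% at p below 1e-10, 11.1% at 10 input reads, 6.94% at 50, 9.09% for peaks within 1 exon and 7.87% with neighbouring peaks merged. The share of protein-coding genes with a peak was, for the first 7 of these settings in the same order, 45.8%, 35.4%, 38.7%, 28.8%, 46.7%, 39.4% and 41.7%.

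The top 1% of genes held 17.9%, 19.0%, 16.8%, 16.1%, 17.6%, 16.3% and 18.1% of IP reads under those 7 settings, and 18.5%, 20.3%, 17.4%, 16.9%, 17.9%, 16.5% and 18.4% of input reads. With peaks of at least 100 exonic nt, chosen after seeing the data, the shares were 18.7% and 18.8%, and by reads per kb of peak 21.4% and 22.0%.

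IP reads in CDS, 3UTR and 5UTR were 55.2%, 38.8% and 5.98% at IP/input of at least 2, 54.7%, 39.5% and 5.80% at 3, 55.1%, 38.5% and 6.48% at p below 1e-05, and 54.8%, 38.97% and 6.25% at p below 1e-10. At 50 input reads the CDS held 55.2% and the 3UTR 38.2%. For peaks within 1 exon the order of CDS and 3UTR was turned, with 46.9%, 47.9% and 5.19%, and with reads split by overlap the shares were 57.1%, 35.5% and 7.38%. The DRACH ratio was 1.28 at IP/input of at least 3, 1.31 within 1 exon, 1.51 for GGAC and 0.846 on the opposite strand. The share of PP genes with a peak in DE, hILO and WT PP, by thresholds applied to the lists after seeing the data, was 66.4%, 82.1% and 63.7% at p below 1e-10 and 76.2%, 85.7% and 73.6% at 50 input reads.

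Of the values of single lists, 30 moved at IP/input of at least 3 and at p below 1e-10, 15 at p below 1e-05, 10 with the log2 ratio of pooled reads and at most 5 under each of the other settings.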
